A study of Homo sapiens with 4 samples.

Results

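The KLF transcription factors measured here are KLF2, KLF3, KLF4, KLF5, KLF6, KLF7, KLF9, KLF10, KLF11 and KLF13, 10 genes of the 17721 that could be named on the arrays. They were taken by symbol, through the RefSeq accession of each spot, and are covered by 18 of the 41000 non-control probes, with 1 probe each for 4 genes, 4 probes for KLF6 and 2 for each of the rest. Total RNA came from OVSAYO cells, a human line established from an ovarian clear cell carcinoma (CCC), transfected with an siRNA that served as negative control (NS-si, control cells) or with a pool of siRNAs against Sp1 (Sp1-si, silenced cells) and cultured for 40 h by the sample labels, where the study's own text gives a shorter time. Cells of each kind were then left without CoCl2 or exposed to 0.5 mM CoCl2, a hypoxia-mimicking agent, for 4 h (NS-si → CoCl2 and Sp1-si → CoCl2). Each of the 4 conditions was measured on 1 single-colour array, all on 1 slide, so no ratio has a replicate check, no p-value was computed, and precision is limited by having so few arrays. All cells went through transfection, and all are of a single line. In bulk RNA, a change in all cells and a larger change in some of them cannot be told apart.

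Krüppel-like factors share zinc fingers at the C-terminus that bind GC-rich and CACCC sequences, the same kind of site that Sp1 binds, and differ in the part that recruits cofactors. KLF2, KLF4, KLF5, KLF6 and KLF7 are known mainly as activators that work with acetyltransferases, KLF3 represses through CtBP, and KLF9, KLF10, KLF11 and KLF13 recruit the corepressor SIN3A. Several of them, KLF4, KLF6 and KLF10 among them, are known as genes that respond within hours to stress or growth factors. The arrays describe how their transcripts differed with CoCl2 and whether that difference was alike in control and silenced cells.

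The stretches below are the 250 bases before annotated transcript starts of the members whose main probe differed by a log2 ratio of at least 1 in any of the 4 ratios, shown because Sp1 binds GC boxes. They come from RefSeq on build GRCh38.p14, read 5′ to 3′ on the strand of the gene, and capitals mark each GC box, GGGCGG or its reverse complement CCGCCC. They are chr19:16324576-16324825 on the plus strand for KLF2, chr9:107489770-107490019 on the minus strand for KLF4, chr10:3785210-3785459 on the minus strand for KLF6 and chr2:10043971-10044220 on the plus strand for the downstream of the 2 annotated starts of KLF11. The stretch before the upstream KLF11 start, with 2 GC boxes, is not printed.
KLF2: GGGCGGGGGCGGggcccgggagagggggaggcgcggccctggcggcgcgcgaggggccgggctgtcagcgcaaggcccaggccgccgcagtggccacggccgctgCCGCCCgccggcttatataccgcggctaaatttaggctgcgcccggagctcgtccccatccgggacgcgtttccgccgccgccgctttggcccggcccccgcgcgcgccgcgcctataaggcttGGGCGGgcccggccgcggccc
KLF4: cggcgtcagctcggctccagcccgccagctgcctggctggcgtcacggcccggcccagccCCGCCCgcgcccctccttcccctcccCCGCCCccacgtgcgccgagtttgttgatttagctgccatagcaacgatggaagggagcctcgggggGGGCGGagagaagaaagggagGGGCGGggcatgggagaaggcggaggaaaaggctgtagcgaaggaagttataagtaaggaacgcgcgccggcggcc
KLF6: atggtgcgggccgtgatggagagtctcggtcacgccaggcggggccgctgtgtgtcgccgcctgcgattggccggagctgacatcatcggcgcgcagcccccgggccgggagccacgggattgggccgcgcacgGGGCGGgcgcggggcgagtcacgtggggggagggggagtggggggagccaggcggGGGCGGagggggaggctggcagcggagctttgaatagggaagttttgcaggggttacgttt
KLF11, downstream start: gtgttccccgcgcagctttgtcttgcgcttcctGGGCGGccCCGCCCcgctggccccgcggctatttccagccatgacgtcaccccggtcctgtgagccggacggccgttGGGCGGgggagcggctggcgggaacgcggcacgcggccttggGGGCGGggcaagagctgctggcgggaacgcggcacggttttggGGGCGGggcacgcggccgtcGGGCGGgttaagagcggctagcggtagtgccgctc

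Entries were matched for 8 of the 10 members, with 13 starts in all. Matches were counted on both strands, and overlapping matches each count. A GC box was found before 8 of the 13 starts and before 42.6% of all 35116 starts in the table. KLF2 and KLF4 had 4 GC boxes each and KLF6 had 2, whereas the KLF11 starts had 2 upstream and 6 downstream. KLF5 had 0 at its upstream start and 2 at the other, KLF13 had 3, and the KLF9 stretch had none. The core of the hypoxia response element bound by HIFs, ACGTG or GCGTG, was found before 9 of the 13 starts and before 43.2% of all starts. The upstream KLF11 start had the most such matches, 5, and the downstream one had 2, as did KLF13. The starts of KLF7, a gene without a ratio here, had 2, 1, 1 and 1. In KLF6 there were 3 such matches and in KLF4 2, where in each of KLF6 and KLF4 a pair is the same palindrome read on both strands. CACCC was found before 6 of the 13 starts and before 54.7% of all. A match is a description of letters and not of binding.

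**Figure D1:**
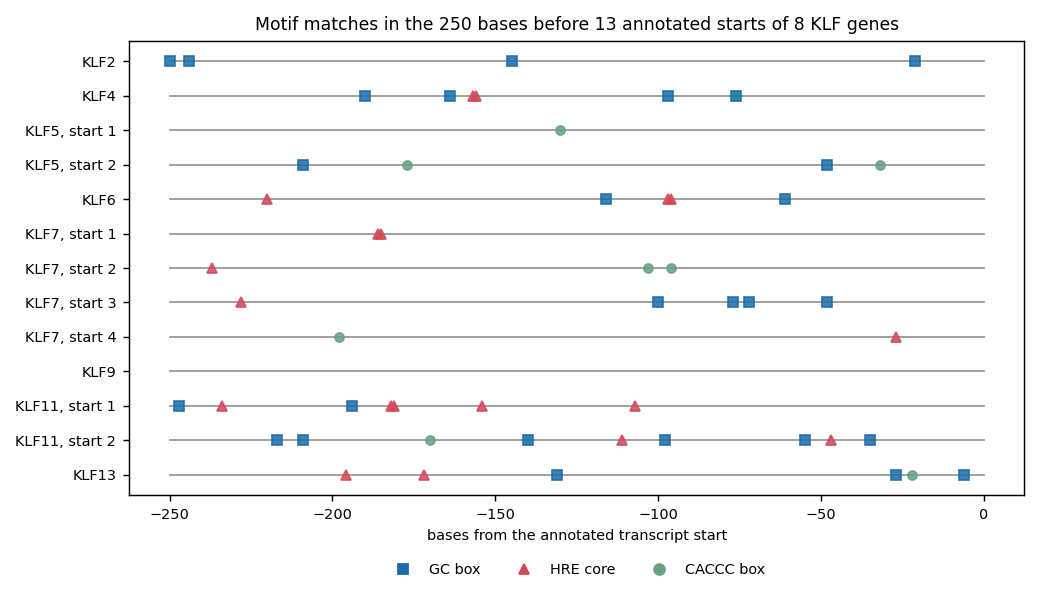
Matches to the GC box (squares), the hypoxia response element core (triangles) and CACCC (circles) in the 250 bases before 13 annotated starts of 8 KLF genes, plotted by the distance in bases of the first base of the match from the start. The downstream start of KLF11 carries 6 GC boxes, the upstream one 2 and the KLF9 stretch none.

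Before the members, the silenced transcript itself was checked. The SP1 probe with 10 spots (A_23_P366312) was lower in silenced than in control cells, with a log2 ratio of -3.77 (SD between spots 0.11) without and -3.87 (SD 0.099) with CoCl2. The arrays were scaled to their 75th percentile of signal, which was 1143 for NS-si, 977 for NS-si → CoCl2, 1100 for Sp1-si and 1287 for Sp1-si → CoCl2. Ratios below are on this scale, while the signals are given as deposited. Without the scaling, every log2 CoCl2 ratio changes by -0.226 in control cells and by 0.227 in silenced cells, every silenced-to-control ratio by -0.06 without and 0.40 with CoCl2, and every difference between CoCl2 ratios by 0.45. The line carried the markers of its label: all 5 epithelial markers and the clear cell carcinoma markers NAPSA and PAX8 stood well above background on the 4 arrays, while PTPRC, PECAM1, CDH5 and COL3A1 were on none. Of these markers, CDH1 and NAPSA were lower in silenced cells, by log2 ratios of -1.55 and -2.33 without CoCl2. CD3E, CD14 and DCN were well above background at low signals, between 15.4 and 327. CD3E ranged from 213 to 327 and CD14 from 127 to 180. The main probes of KLF2 (191 to 403), KLF4 (136 to 413) and KLF9 (202 to 509) overlapped the range of CD3E. The dimmer probes of KLF2, KLF3 and KLF11 lay below both CD3E and CD14. Whether signals of this size are specific, for these markers or for the members, was not tested.

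For each gene the probe with the highest mean signal is called the main probe. Of the 18 member probes, 17 stood well above background on each of the 4 arrays. The exception was the only probe of KLF7 (A_23_P67980), a factor known from neurons, with signals of 3.13 in NS-si, 1.5 in NS-si → CoCl2, 5.91 in Sp1-si and 2.24 in Sp1-si → CoCl2 cells. None of these was well above background, so KLF7 has no ratio. All member probes had 1 spot per array, so the SD beside a ratio is borrowed from the 50 probes with 10 spots of most similar signal and covers the spread between spots only, not that between cultures.

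**Figure D2:**
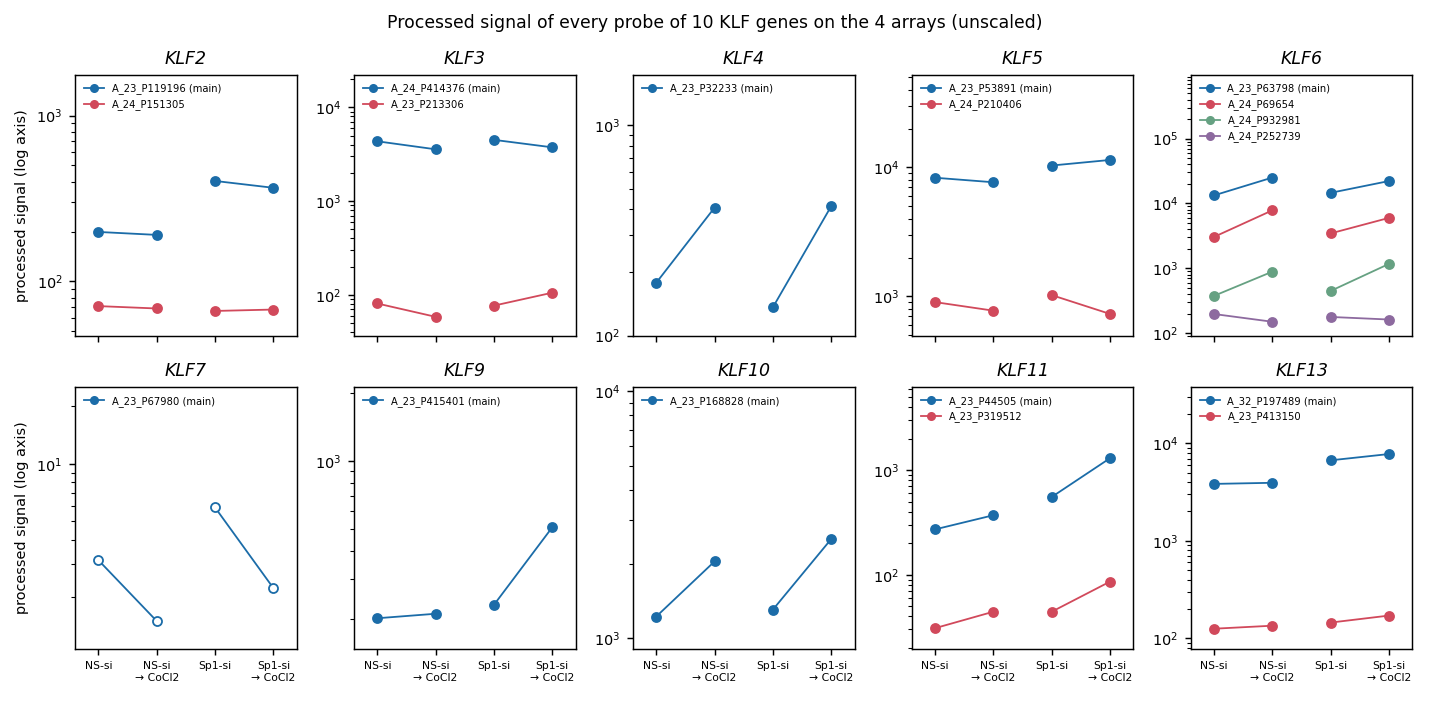
Processed signal as deposited (log axis) of every probe of the 10 KLF genes, 1 panel a gene and 1 colour a probe, on the 4 arrays. Filled points were well above background and open points were not. KLF4 lies higher with CoCl2 in both kinds of cells, KLF11 and KLF13 lie higher in silenced than in control cells, and all KLF7 points are open. After scaling, the dimmer KLF13 probe gave a log2 ratio of -0.05 for silenced to control cells with CoCl2.

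In NS-si cells, CoCl2 left KLF4 and KLF6 higher by a log2 ratio of at least 1, which is 2 of the 9 members with a ratio. Among all 15115 genes with a ratio, 4.22% were higher by that much and 3.54% were lower, while 0 members were lower. The member median was 0.29, against 0.00458 over all genes, and 8 of the 9 main probes lay above 0, as did 50.6% of all genes. Without scaling KLF6 fell to 0.91 and only KLF4 passed. In Sp1-si cells, KLF4 and KLF11 passed the same limit, again 2 of 9, against 3.7% of 14930 genes higher and 4.04% lower. KLF11, at 1.0, lost this call under 4 of the 10 settings in which it was recomputed. There the member median was 0.38, and 5 of the 9 main probes lay above 0, as did 49.0% of all genes. Without scaling the main probes above 0 numbered 6 in control cells, where 29.5% of all genes lay above 0. In silenced cells they numbered 7, where 69.8% of all genes did. These shares rest on very few genes, and the members were not drawn at random.

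KLF4, an activator and repressor known from stem cells and epithelial differentiation, had the highest CoCl2 ratio among the main probes in both kinds of cells, while in control cells a pair of dimmer KLF6 probes lay higher. Its probe (A_23_P32233) had signals of 178 in NS-si, 406 in NS-si → CoCl2, 136 in Sp1-si and 413 in Sp1-si → CoCl2 cells. Both treated arrays thus lay above both untreated ones. The log2 ratio was 1.41 (SD 0.056) in control cells and 1.37 (SD 0.055) in silenced cells. The ratios differed by -0.04, less than its borrowed SD of 0.079. Under the other settings this difference was between -0.07 and 0.41, the latter without scaling. KLF4 lay at -0.33 in Sp1-si relative to control cells without CoCl2 and at -0.38 with it, and the latter became 0.02 without scaling.

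KLF6, a zinc finger activator known as a tumour suppressor, was among the genes that the study followed up from these arrays, so that its values are a description. The main probe (A_23_P63798) had signals of 13304 in NS-si, 25057 in NS-si → CoCl2, 14562 in Sp1-si and 22138 in Sp1-si → CoCl2 cells. Both treated arrays were higher than both untreated ones, with the smaller step in silenced cells. The log2 CoCl2 ratio of 1.14 in control cells, or 0.91 without scaling, was equalled or exceeded by 3.22% of all genes. That of 0.38 in silenced cells, or 0.60 without scaling, was equalled or exceeded by 18.5%. The difference between them, -0.76 (SD 0.036), was the most negative among the main probes of the members and became -0.31 without scaling. In Sp1-si cells KLF6 stood at 0.19 relative to control cells without CoCl2 and at -0.58 with it, or 0.13 and -0.18 without scaling.

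The 4 KLF6 probes, all annotated to the same accession (NM_001300), did not give the same ratios. The second brightest (A_24_P69654) had signals of 3045 in NS-si, 7827 in NS-si → CoCl2, 3449 in Sp1-si and 5984 in Sp1-si → CoCl2 cells, with a difference of -1.02 between its CoCl2 ratios. For A_24_P932981 the signals were 376, 887, 447 and 1169 in the same order. Under CoCl2 its level in silenced relative to control cells was 0.000133 (SD 0.039) on the log2 scale, or 0.40 without scaling, and the difference between its CoCl2 ratios was -0.31, or 0.15 without scaling. A_24_P252739 had 197 without and 150 with CoCl2 in control cells, and 178 without and 162 with CoCl2 in silenced cells. The difference between its CoCl2 ratios was -0.19, or 0.26 without scaling. It was thus lower with CoCl2 in both kinds of cells, where the other 3 probes were higher. Which KLF6 transcripts each probe detects was not tested.

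KLF2, an activator known from endothelial cells and T lymphocytes and induced by the kinase ERK5, was a member whose level differed with Sp1 silencing more than with CoCl2. Its main probe (A_23_P119196) had signals of 199 in NS-si, 191 in NS-si → CoCl2, 403 in Sp1-si and 367 in Sp1-si → CoCl2 cells, so that both Sp1-si arrays lay above both NS-si arrays. The log2 ratio of Sp1-si to NS-si was 1.08 (SD 0.056) without CoCl2 and 0.54 (SD 0.049) with it, or 1.02 and 0.94 without scaling. The dimmer KLF2 probe (A_24_P151305) stayed between 66.4 and 71.1 on all 4 arrays and gave -0.04 and -0.42. Higher KLF2 levels in silenced cells were therefore seen with 1 of the 2 probes.

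KLF5, an activator known from proliferating epithelial cells, and KLF3 had main probe ratios within 0.5 of 0 in all 4 comparisons on the scale used here. Under other settings KLF5 reached 0.57 for silenced to control cells with CoCl2, and KLF3 reached -0.54 for CoCl2 in silenced cells. For KLF5 (A_23_P53891) the signals were 8312 in NS-si, 7667 in NS-si → CoCl2, 10338 in Sp1-si and 11419 in Sp1-si → CoCl2 cells, with log2 CoCl2 ratios of 0.11 in control cells and -0.08 in silenced ones, which became -0.12 and 0.14 without scaling. The second KLF5 probe (A_24_P210406) gave 0.01 and -0.71. For KLF3 (A_24_P414376) the signals were 4349 in NS-si, 3572 in NS-si → CoCl2, 4506 in Sp1-si and 3750 in Sp1-si → CoCl2 cells, with CoCl2 ratios of -0.06 and -0.49. The second KLF3 probe (A_23_P213306), with signals from 58.4 to 106, gave -0.25 in control cells and 0.23 in silenced ones, so that its difference of 0.48 had the opposite sign to the -0.43 of the main probe, which became 0.02 without scaling.

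Of the SIN3A-recruiting members, KLF10 and KLF11 are known as TGFβ-inducible early genes. The KLF10 probe (A_23_P168828) had signals of 1222 in NS-si, 2044 in NS-si → CoCl2, 1303 in Sp1-si and 2518 in Sp1-si → CoCl2 cells. The treated arrays were higher in both kinds of cells, with log2 ratios of 0.97 (SD 0.033) in control cells, just under the limit of 1, and 0.72 (SD 0.032) in silenced cells. Without CoCl2 its Sp1-si level stood at 0.15 relative to NS-si, and with CoCl2 at -0.10, which became 0.30 without scaling.

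KLF11 was higher both with CoCl2 and with Sp1 silencing, in both of its probes. Its main probe (A_23_P44505) had signals of 272 in NS-si, 371 in NS-si → CoCl2, 555 in Sp1-si and 1305 in Sp1-si → CoCl2 cells. The lowest of the Sp1-si arrays lay above the highest of the NS-si arrays. The log2 ratio of Sp1-si to NS-si was 1.09 (SD 0.041) without CoCl2 and 1.42 (SD 0.041) with it, and the CoCl2 ratio was 0.68 in control cells and 1.0 in silenced ones, the latter between 0.87 and 1.23 over the settings. The dimmer probe (A_23_P319512), with signals of 30.9 in NS-si, 44.3 in NS-si → CoCl2, 44.3 in Sp1-si and 86.1 in Sp1-si → CoCl2 cells, ran in the same directions. It gave 0.58 and 0.56 for Sp1-si to NS-si, and 0.75 and 0.73 for CoCl2, with SDs between 0.109 and 0.126.

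KLF9, known as a gene induced by glucocorticoid and thyroid hormone, was high on 1 array only. Its probe (A_23_P415401) had signals of 202 in NS-si, 211 in NS-si → CoCl2, 231 in Sp1-si and 509 in Sp1-si → CoCl2 cells. The CoCl2 ratio was 0.29 (SD 0.054) in control cells and 0.91 (SD 0.054) in silenced ones. Their difference of 0.62 (SD 0.077) was the most positive among the members. It was 1.07 without scaling and at least 0.62 under every setting in which it was recomputed.

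KLF13, an activator of the chemokine gene CCL5 in T lymphocytes, differed more between the siRNAs than with CoCl2 in its main probe. The main probe (A_32_P197489) had signals of 3842 in NS-si, 3944 in NS-si → CoCl2, 6712 in Sp1-si and 7789 in Sp1-si → CoCl2 cells, with both Sp1-si arrays above both NS-si arrays. The log2 ratio of Sp1-si to NS-si was 0.86 (SD 0.026) without and 0.58 (SD 0.029) with CoCl2. The dimmer probe (A_23_P413150) gave 0.27 and -0.05, or 0.21 and 0.35 without scaling.

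**Figure D3:**
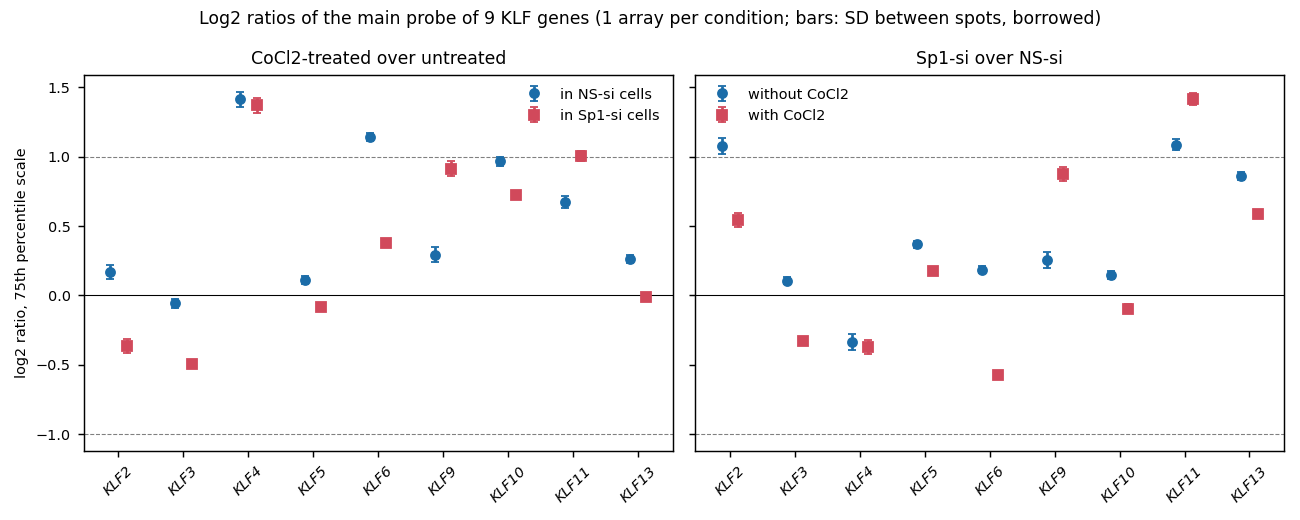
Log2 ratios of the main probe of 9 KLF genes, for CoCl2 in control and silenced cells (left) and for Sp1-si over NS-si without and with CoCl2 (right). Points are single pairs of arrays, bars are the borrowed SD between spots, and dashed lines mark log2 ratios of -1 and 1. On the left, KLF4 lies above 1 in both kinds of cells, KLF6 in control cells only, and KLF11 just above 1 in silenced cells only. On the right, KLF11 lies above 1 with and without CoCl2, and KLF2 without it.

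Without CoCl2, the members higher in silenced than in control cells by at least 1 were KLF2 and KLF11, 2 of 9, against 6.22% of 15186 genes higher and 6.18% lower. Of the 9 main probes 8 lay above 0, KLF4 being the exception, with a member median of 0.25 against -0.008 over all genes. With CoCl2, KLF11 alone passed, 1 of 9, against 7.17% of 15042 genes higher and 8.08% lower, and the member median was 0.18. In neither case was a member lower by at least 1. When all probes of a gene were averaged, 0 members passed in either comparison, as the second probes of KLF2 and KLF11 lay lower.

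For the difference of the CoCl2 ratios, Sp1-si minus NS-si, 0 of 9 members passed a log2 value of 1 in either direction, against 0.973% of 14283 genes higher and 2.88% lower. The member median was -0.25, and 7 of 9 main probes and 14 of 17 probes lay below 0, as did 48.6% of all genes. Without scaling, 4 of the 17 probes lay below 0 and 13 above. Of the 9 main probes 7 then lay above 0, as did 88.2% of all genes. The main probe values, from KLF6 at -0.76 to KLF9 at 0.62, keep their order without scaling, which moves all of them alike.

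**Figure D4:**
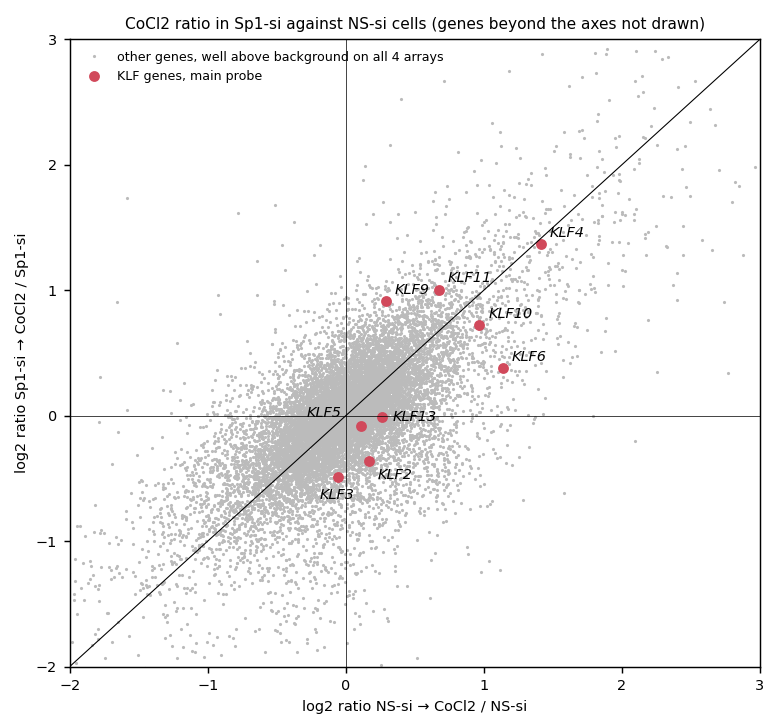
Log2 CoCl2 ratio in silenced cells against that in control cells for the main probes of 9 KLF genes (labelled) and of the other genes well above background on all 4 arrays (grey), with the line of equal ratios. KLF6 lies below the line, at 1.14 and 0.38, KLF9 above it, at 0.29 and 0.91, and KLF4 near it.

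**Figure D5:**
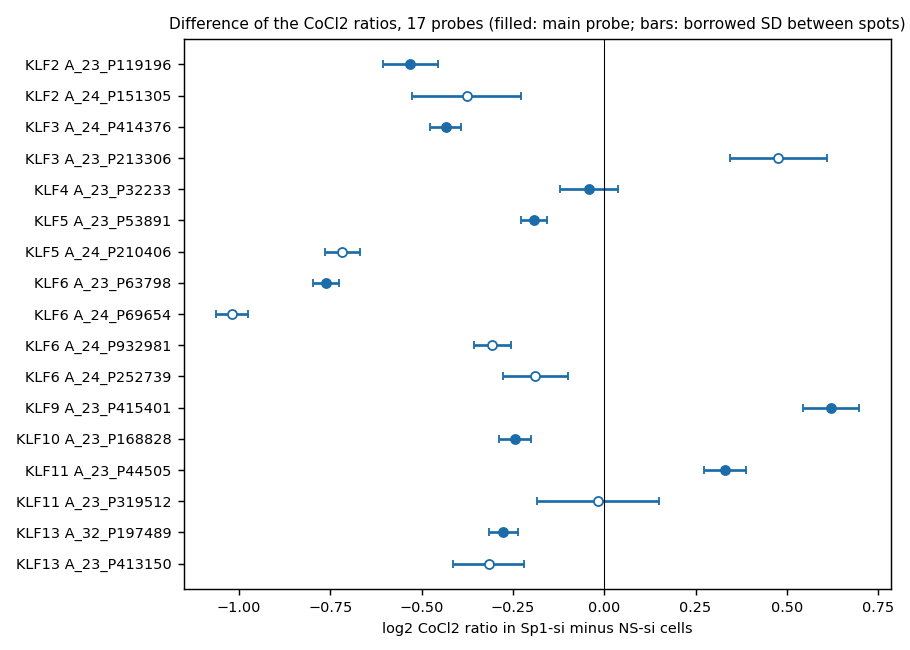
Difference between the log2 CoCl2 ratios, Sp1-si minus NS-si, for each of 17 KLF probes, with filled points for main probes and bars for the borrowed SD between spots. All 4 KLF6 probes lie below 0, from -1.02 to -0.19, of which A_24_P932981 and A_24_P252739 turn to 0.15 and 0.26 without scaling, whereas the KLF3 probes lie on opposite sides of 0.

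The genes with the 4 values most like those of a member were found for KLF4, KLF6 and KLF11 by the distance between log2 values centred on the mean of each probe, over 4 conditions and among 14282 other genes. For KLF6 these were TRARG1 at a distance of 0.0859, CKB at 0.0978 and ZNF292 at 0.112, where the median gene lay at 1.03. For KLF4 they were UAP1L1 at 0.0560, TICAM1 at 0.130 and YOD1 at 0.146, and for KLF11 they were GAB2 at 0.126, KREMEN2 at 0.127 and PRXL2B at 0.189. Over so few conditions many genes are close, and the likeness carries no test.

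Among the other 7 KLF genes, 5 had a main probe well above background on all 4 arrays, and KLF15 and KLF17 did not. KLF12, a repressor of the same CtBP-binding kind as KLF3, was higher in silenced than in control cells by 1.29 without and 1.19 with CoCl2, with signals of 131 in NS-si, 145 in NS-si → CoCl2, 309 in Sp1-si and 436 in Sp1-si → CoCl2 cells. KLF16 was lower in silenced cells with CoCl2, at -1.13, and gave a difference of the CoCl2 ratios of -1.08 with its main probe, while the dimmer one gave -0.16 and -0.11. KLF8 had a CoCl2 ratio of 1.01 in control cells and 0.16 in silenced ones, while its other probe gave 0.12 and 0.31, and for silenced to control cells with CoCl2 the 2 probes gave -0.20 and 1.18. KLF1 and KLF14 stayed within 1 of 0 in all 5 values.

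Of 10 cofactor genes of KLF proteins, 9 had a named probe. In silenced cells 2 of the 9 were higher by at least 1, against 6.22% of all genes without and 7.17% with CoCl2. In this list 0 were lower, and 0 passed the limit with CoCl2 in either kind of cells. SIN3A, the corepressor that KLF9, KLF10, KLF11 and KLF13 recruit, had signals of 522 in NS-si, 702 in NS-si → CoCl2, 1673 in Sp1-si and 2958 in Sp1-si → CoCl2 cells. Its log2 ratio of Sp1-si to NS-si was 1.74 without and 1.68 with CoCl2, and the second probe gave 1.60 and 1.76. KAT2B, an acetyltransferase, gave 1.34 and 1.43. CTBP1, CTBP2, HDAC1, HDAC2, HDAC3, EP300 and CREBBP stayed within 1 of 0. The list median without CoCl2 was 0.14, against -0.008 over all genes.

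Another list held 10 genes of a kinase route or of ubiquitin ligases that act on KLF2, KLF4 or KLF5. In it, MAPK7 was the only one past the limit with CoCl2. MAPK7 encodes ERK5, and its probe had signals of 1177 in NS-si, 4382 in NS-si → CoCl2, 1711 in Sp1-si and 8259 in Sp1-si → CoCl2 cells. The list median with CoCl2 in control cells was 0.06, against 0.00458 over all genes, of which 4.22% were higher by at least 1 and 3.54% lower. The MAPK7 log2 CoCl2 ratio was 2.12 in control cells and 2.04 in silenced ones, a difference of -0.08. BTRC, a subunit of a ubiquitin ligase, was higher in silenced cells by 1.12 without and 1.47 with CoCl2, while its other probe gave 0.37 and 0.65.

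Of 16 known KLF target genes, 15 had a named probe and 12 stood well above background throughout. The median CoCl2 ratio was 0.32 over the 13 list genes with a ratio or bound in control cells and 0.16 over 12 in silenced ones. Over all genes the medians were 0.00458 and -0.0093. Of all genes 4.22% and 3.7% were higher by at least 1, and 3.54% and 4.04% lower. SMAD7, an inhibitor of TGFβ signalling, was the only one higher by at least 1 with CoCl2, with ratios of 1.48 in control cells and 1.04 in silenced ones. PDGFA, a growth factor gene, was higher in silenced cells by 1.52 without and 1.45 with CoCl2, and TXNIP, an inhibitor of thioredoxin, by 2.83 and 3.36, whereas ENG, which encodes endoglin, was lower, at -1.28 and -1.31. S1PR1, a receptor for sphingosine-1-phosphate, had signals of 251 in NS-si, 62.1 in NS-si → CoCl2, 199 in Sp1-si and 225 in Sp1-si → CoCl2 cells. It was thus low on 1 array, with CoCl2 ratios of -1.79 in control cells and -0.05 in silenced ones, a difference of 1.74, and under CoCl2 it stood at 1.46 in silenced relative to control cells. TXNIP had a CoCl2 ratio of -1.17 in control cells and -0.64 in silenced ones. CDKN1A, which KLF4 and KLF6 are known to induce, lay between -0.27 and 0.10 in all comparisons. THBD, a known target of KLF2 in endothelial cells, did not stand well above background anywhere.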

How the data were processed

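Total RNA of OVSAYO cells under 4 conditions was measured on 1 Agilent single-colour whole-genome human array each. The authors deposited the spot intensities of Feature Extraction 10.5.1.1, with background subtracted, detrended within the array and not normalized between arrays, and the calls of outlier spots and of spots well above background are other columns that the authors deposited with them. The authors' value table equals these intensities times 1 constant per array (1.25 to 1.58). How these constants were chosen is not given in the sources used here.

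Here, outlier spots were left out, log2 signals of non-control spots were scaled to the 75th percentile of their array and spots of a probe were averaged. A probe counted as well above background if 50% or more of its spots did, and a ratio with only 1 such side is a bound. Of 29877 spots with a RefSeq accession, 28463 gave a symbol. Array annotation is on hg18, so no coordinates of probes are given. Of several probes of a gene, the one brightest on average stands for it, and genes past a log2 ratio of 1 were counted. All member probes, SP1, list genes past that limit and the 3 genes most like each responding member are named, and some list genes are not reported here. The members and lists were chosen with earlier results of these data known. With 1 array per condition there was no test. Counting was tested on simulated data. Python 3.11.15, pandas 2.3.3, numpy 2.4.6, matplotlib 3.10.9, R 4.3.3 and limma 3.58.1 were used. Probe sequences were not used here.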

Additional observations from a re-analysis of the deposited data

Results flagged for a closer look

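For 3 member probes the CoCl2 ratios in control and silenced cells had opposite signs, each at least 2 borrowed SDs from 0. These differences were not tested, and each rests on 1 array per condition. The main KLF2 probe (A_23_P119196) gave 0.17 in control cells and -0.36 in silenced ones, a difference of -0.53, but both ratios were negative without scaling (-0.06 and -0.14). The dimmer KLF3 probe (A_23_P213306) gave -0.25 and 0.23, a difference of 0.48, and kept these signs without scaling at -0.47 and 0.46, while the main KLF3 probe did not share them. The main KLF5 probe (A_23_P53891) gave 0.11 and -0.08, a difference of -0.19, and without scaling the signs exchanged, to -0.12 and 0.14.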

How the results depend on the processing

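Member ratios were recomputed under 10 settings and counts of members under these and a limit of 1.5-fold. Of these, normexp with an offset of 50 on median signals followed by quantile normalization was chosen after the data were seen, as was recounting the lists. The planned normexp on mean spot signals was not run, because the files used here hold median signals. Of 450 recomputed member ratios, 273 moved by no more than the borrowed SD, 177 moved by more, and 0 that were past a log2 ratio of 1 changed sign. Smaller ratios of KLF2, KLF3, KLF4, KLF5, KLF10 and KLF13 did change sign under some settings. The 273 include settings that left these ratios as they were. Those were keeping outlier spots, a floor on dim signals and the limit to probes well above background throughout, which all main probes with a ratio were. Of 220 recomputed counts for the lists, 187 stayed within 1.5 times. The cause of the changes below was not tested beyond what each setting does by construction.

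Without scaling, the members higher by at least 1 numbered 1 for CoCl2 in control cells (KLF4), 2 for Sp1-si to NS-si with CoCl2 (KLF9 and KLF11) and 1 for the difference of the CoCl2 ratios (KLF9). For CoCl2 in silenced cells, the count was 3 (KLF4, KLF9 and KLF11) without scaling and under median scaling, and it was 1 under the percentile taken only over probes detected throughout, the scale of the authors' table, averaging of all probes of a gene, and normexp. KLF4 was the member kept in each, and KLF11, at 1.0 on the scale used in the report, fell below. For Sp1-si to NS-si without CoCl2 the count was 0 under the mean over all probes and under normexp, and with CoCl2 it was 0 under the mean over all probes, where KLF11 reached 0.99. At a limit of 1.5-fold, with CoCl2 4 members were higher in control cells and 4 in silenced ones, 3 (KLF2, KLF11 and KLF13) for Sp1-si to NS-si without CoCl2 and 2 with it, and for the difference 1 was higher (KLF9) and 1 lower (KLF6). The SP1 ratio with CoCl2 was -3.75 under quantile normalization, -3.76 under median scaling, -3.47 without scaling, -4.08 over both probes and -2.47 under normexp, which gave -2.52 without CoCl2. KLF7 could not be measured because its signals were at background. No paired analysis was possible because each condition has 1 array and no further replicate number is shared.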

Other observations

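KLF3-AS1, an antisense RNA of the KLF3 locus that was matched by its own accession (NR_026804, probe A_23_P30163), was well above background on the Sp1-si arrays only. Its signals were 3.67 in NS-si, 5.36 in NS-si → CoCl2, 24.5 in Sp1-si and 24.1 in Sp1-si → CoCl2 cells. It was at least 3.44-fold higher in silenced than in control cells without CoCl2 and at least 2.63-fold higher with CoCl2, where the main KLF3 probe gave log2 ratios of 0.11 and -0.33.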
